A study of Mus musculus with 12 samples.

Results

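The transcriptome of peritoneal macrophages (PMs) that received the transfection reagent and control exosomes was described from 2 of the 12 arrays of the series. These arrays were chosen by their labels, which name lipofectamine and a GFP reporter, and are called baseline PMs here. The reporter was taken to mean exosomes of sensory neurons carrying GFP, which these labels do not state. The other 10 arrays fell into 5 groups of 2: scramble oligonucleotide or antagomir-21 with GFP exosomes, and lipofectamine, scramble or antagomir-21 with exosomes of sensory neurons overexpressing miR-21. Per the methods, PMs came from the peritoneal lavage of C57BL/6 mice of both sexes, were enriched by adherence and were cultured for 48 h after transfection. With the GFP reporter read as GFP exosomes, every group had lipofectamine and neuronal exosomes, and none was free of either. The lipofectamine groups are named in the labels alone, and no label says whether an oligonucleotide was absent. The methods give an age for the conditional knockout mice and their littermates, but none for the mice that gave the PMs.

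Macrophages take up particles, apoptotic cells and lipoproteins through surface receptors, break them down in lysosomes and recycle iron and cholesterol. They depend on signaling through the CSF1 receptor and on the transcription factor PU.1, and they secrete complement, lysozyme, chemokines and matrix proteins. The peritoneal cavity holds large resident macrophages, known for the transcription factor GATA6 and the phosphatidylserine receptor TIM-4, and smaller monocyte-derived macrophages with MHC class II. Other cells of the lavage, B cells above all, can remain in an adherent culture.

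A log2 signal was read for 18193 genes, each from its brightest probe set over all 12 arrays. A probe set is a group of short probes for a transcript, and probe sets differ in how well they bind, so the order given here is that of signals and not of RNA amounts. The percentile of a gene is its place among all genes by the mean of both arrays, with the brightest near 100. The median gene had a log2 signal of 8.30 on array 1 and 8.26 on array 2, and the mean signal was 10.86 at the 90th percentile and 13.74 at the 99th. The brightest 100 genes held 23.5% of the summed linear signal on array 1 and 29.8% on array 2. As a measure of low signal, 72 olfactory, vomeronasal and bitter taste receptor genes, which macrophages are not known to use, had a median of 7.50 on array 1 and 7.27 on array 2. Their 95th percentile was 10.44 on array 1 and 10.07 on array 2, and 2309 genes (12.7% of all genes) lay above it on both arrays. Genes called above the receptor genes here are those 2309. Of the 72 receptor genes themselves 4 did so, with *Vmn2r84* the brightest at 11.53 and 11.13. A dim signal is therefore a position in the order and not a statement that a gene was off.

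The macrophage markers were among the bright genes. *Csf1r*, the receptor for CSF1, had log2 signals of 15.45 on array 1 and 16.28 on array 2 and was 29th of 18193 genes. *Adgre1*, which encodes F4/80, had signals of 12.24 and 13.02 and lay at percentile 97.6. *Lyz2*, the macrophage lysozyme, had signals of 16.12 and 17.21 and was 9th. All 3 were brighter on array 2. *Lyz1*, a close copy of *Lyz2*, was the brightest gene of all, with signals of 17.48 and 18.32, from a probe set whose name (_x_at) marks probes that may bind other transcripts. A further *Lyz1* probe set without that mark read only 8.26 and 9.50, so the share of *Lyz2* transcripts in the *Lyz1* signal was not determined. The 3 probe sets of *Csf1r* likewise spanned mean signals from 9.44 to 15.86. Over the 9010 genes with several probe sets, the median range between probe sets of a gene was 2.28, and over the 418 of these among the brightest 500 genes it was 5.01.

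**Figure D1:**
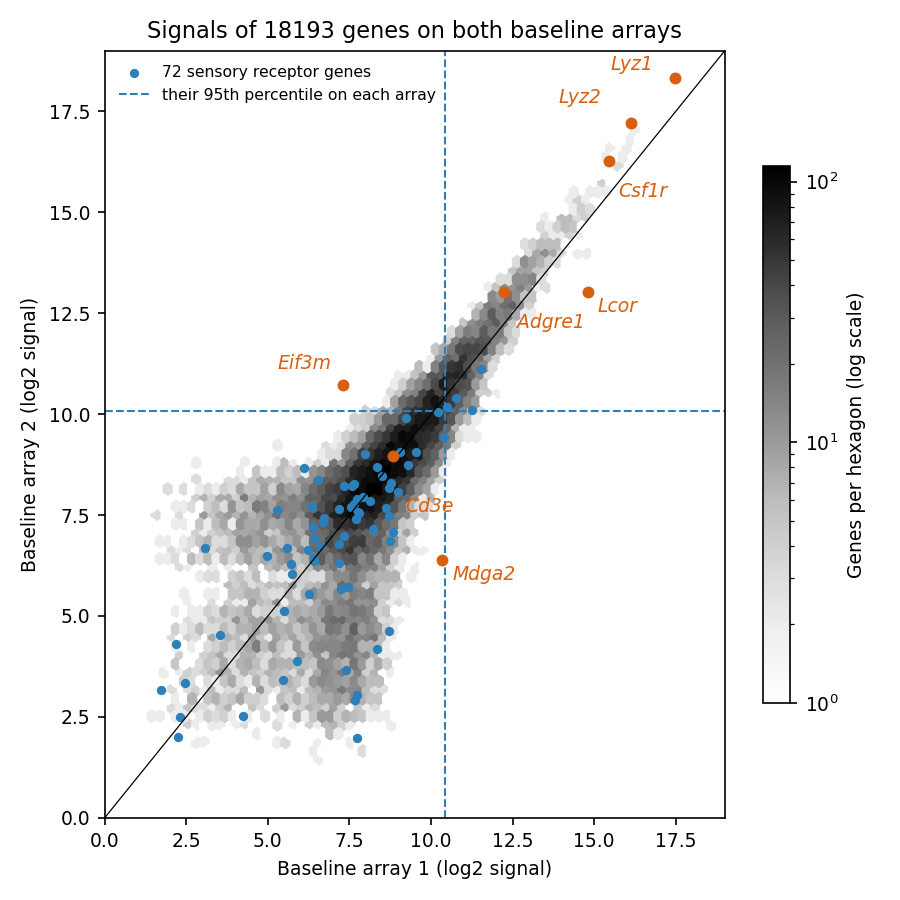
Log2 signal of each of 18193 genes on baseline array 1 (x axis) against baseline array 2 (y axis). Grey hexagons count genes on a log scale, blue points are the 72 sensory receptor genes, dashed lines are their 95th percentiles (10.44 and 10.07), the diagonal marks equal signals and orange points are named genes. Bright genes form a narrow band just above the diagonal, and dim genes spread into arms where 1 array is low and the other is not.

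Of the 20 brightest genes, *Lyz1* was followed by *Vim*, the intermediate filament vimentin, with 17.32 and 18.06 on arrays 1 and 2. *Ctss*, the lysosomal protease cathepsin S, was 3rd with 17.23 and 17.84. *Fabp5*, a fatty acid binding protein, was 4th with 17.07 and 17.81, and *Fabp4* was 19th with 15.87 and 16.33. Among genes for iron and endosomes, *Fth1*, the ferritin heavy chain, had 16.31 and 17.10, and *Lamtor1*, which anchors the nutrient sensor mTORC1 to lysosomes, had 16.25 and 17.33. *Cstb*, an inhibitor of cathepsins, had 16.21 and 17.00, and *Grn*, the precursor of lysosomal granulins, had 15.56 and 16.77. The secreted products *Lpl* (lipoprotein lipase, 16.27 and 16.82), *Saa3* (an acute phase protein, 16.08 and 16.79), *C1qb* (a chain of complement C1q, 16.01 and 16.67) and *Ccl6* (a chemokine, 15.81 and 16.84) were also in this group. The remainder were the mitochondrially encoded *ND5* (16.92 and 17.65), the ribosomal protein genes *Rps29* (16.78 and 17.39) and *Rps28* (15.91 and 16.28), the actin regulator *Cfl1* (16.01 and 16.95), the nuclear RNA *Malat1* (16.10 and 16.78) and the chaperone *Hspa8* (15.99 and 16.52). Array 2 was brighter for 20 of these 20 genes, by 0.36 to 1.20, and for 97 of the brightest 100. Across all genes array 2 was brighter for 51.0%. Of the 20 brightest genes, 15 were read by probe sets whose names carry _s, _x or _a, marks of probes shared between transcripts or genes, against 20.6% of all genes. Of these 15 genes, 11 also had a probe set without such marks. Read from it, none of the 11 was among the brightest 20 genes and 5 were in the brightest 1%.

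Promoters of bright genes are shown here for letters known from macrophage and lysosomal regulation, since the rank order made no use of sequence. RefSeq promoters (build GRCm38.p6, 250 bases before and 50 after an annotated start, which is base 251) were matched for 14367 of the 18193 genes, and the first listed was taken where a gene had several. The 5 shown are those of cathepsin S and the leukocyte tetraspanin *Cd53* with the core of the PU.1 motif (GAGGAAGT, read here on the opposite strand) in capitals, of the lysosomal membrane protein *Lamp1* and of *Lamtor1* with the E-box core of lysosomal genes (TCACGTG, either strand) in capitals, and of vimentin with the TATA box (TATAAA) in capitals.
Ctss (chr3:95526536-95526835, strand +): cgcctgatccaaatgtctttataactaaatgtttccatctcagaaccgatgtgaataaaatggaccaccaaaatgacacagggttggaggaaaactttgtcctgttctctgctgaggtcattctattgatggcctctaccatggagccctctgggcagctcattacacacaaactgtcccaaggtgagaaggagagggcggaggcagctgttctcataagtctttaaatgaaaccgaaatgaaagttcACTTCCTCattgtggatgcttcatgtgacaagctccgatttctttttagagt
Cd53 (chr3:106790100-106790399, strand −): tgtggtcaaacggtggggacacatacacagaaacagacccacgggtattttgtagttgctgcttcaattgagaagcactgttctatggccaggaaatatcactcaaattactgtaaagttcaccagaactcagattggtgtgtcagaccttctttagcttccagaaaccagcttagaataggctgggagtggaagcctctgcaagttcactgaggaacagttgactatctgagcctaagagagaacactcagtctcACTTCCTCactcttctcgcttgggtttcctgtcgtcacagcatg
Lamp1 (chr8:13158911-13159210, strand +): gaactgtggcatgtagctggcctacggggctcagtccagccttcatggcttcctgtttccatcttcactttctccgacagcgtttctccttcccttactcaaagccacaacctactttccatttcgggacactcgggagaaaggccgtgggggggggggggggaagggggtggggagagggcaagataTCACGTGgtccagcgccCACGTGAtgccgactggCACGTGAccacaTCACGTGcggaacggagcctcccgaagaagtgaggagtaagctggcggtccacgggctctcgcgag
Lamtor1 (chr7:101905587-101905886, strand +): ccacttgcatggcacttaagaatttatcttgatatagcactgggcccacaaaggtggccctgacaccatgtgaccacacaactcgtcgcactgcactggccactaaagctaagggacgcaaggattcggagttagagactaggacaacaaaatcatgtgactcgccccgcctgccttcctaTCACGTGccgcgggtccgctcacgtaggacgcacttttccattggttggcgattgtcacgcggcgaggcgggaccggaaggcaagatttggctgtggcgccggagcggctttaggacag
Vim (chr2:13574061-13574360, strand +): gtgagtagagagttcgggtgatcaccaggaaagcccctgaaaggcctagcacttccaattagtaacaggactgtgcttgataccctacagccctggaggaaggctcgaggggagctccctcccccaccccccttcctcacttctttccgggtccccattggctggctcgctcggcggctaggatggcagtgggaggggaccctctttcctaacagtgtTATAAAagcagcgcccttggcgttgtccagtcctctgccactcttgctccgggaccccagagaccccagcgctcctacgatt
The PU.1 core began at base 249 in the *Ctss* promoter and at base 257 in the *Cd53* promoter, and the TATA box of *Vim* began at base 219. The *Lamp1* promoter held 4 copies of the E-box core, beginning at bases 189, 206, 223 and 235, and that of *Lamtor1* held 1, beginning at base 182. The E-box core is the site known for TFEB, TFE3 and MITF. It was found, on either strand, in the promoters of 5 of 19 lysosomal genes (26.3%: *Ctsd*, *Lamp1*, *Glb1*, *Naglu* and *Gaa*) and in 5.13% of the 14367 promoters. These 5 genes ranged from percentile 99.6 (*Ctsd*) to 45.9 (*Gaa*). By signal, the E-box core was found in 3.46% of promoters in the dimmest decile and 7.67% (113 promoters) in the brightest. The rise was not steady, with 6.28% in decile 5 and 5.33% in decile 9, counted from the dimmest. The brightest 10% of genes held 17 of the 21 lysosomal genes, but of those with the E-box core only *Ctsd*, *Lamp1* and *Glb1*. The PU.1 core was found in 8 of the 77 matched promoters of the brightest 100 genes (10.4%), and in 2.91% of the 14367 promoters. Besides *Ctss* and *Cd53* these were the integrin gene *Itgav*, the selenoprotein gene *Selenop*, the RNA-binding protein genes *Ddx5* and *Hnrnpf* and the ribosomal protein genes *Rpl35* and *Rpl13a*. The core was found in 3.46% of promoters in the brightest decile and 2.45% in the dimmest, so that the larger share was that of the very brightest genes. A match of letters is not a bound site.

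Across the whole order, promoters of brighter genes held more CpG. The median promoter had 9 CpG dinucleotides in the dimmest decile of baseline signal and 23 in the brightest, with a median GC content of 56.0% and 62.0%. The GC box (GGGCGG, either strand) was found in 41.5% of promoters in the dimmest decile and 66.4% in the brightest, and the ETS core (CCGGAAGT, either strand, which overlaps the PU.1 core in its last 6 letters) in 2.24% and 7.81%. The TATA box went the other way, from 12.4% to 7.88%, as did the AP-1 motif (TGACTCA, either strand), from 4.83% to 3.60%. Over all 14367 promoters these shares were 54.1% for the GC box, 6.17% for the ETS core, 9.85% for the TATA box and 4.36% for AP-1. The secreted and surface lists had fewer CpG than genes of like signal. Promoters of the 74 matched secreted genes had a median of 4.5 CpG and a TATA box in 31.1%, and those of the 75 surface genes had 7 CpG, although the median signals of both classes were above that of all genes. Promoters of the 92 metabolic genes had a median of 19 CpG and those of the 63 transcription factor genes 22, as in the brighter deciles.

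**Figure D2:**
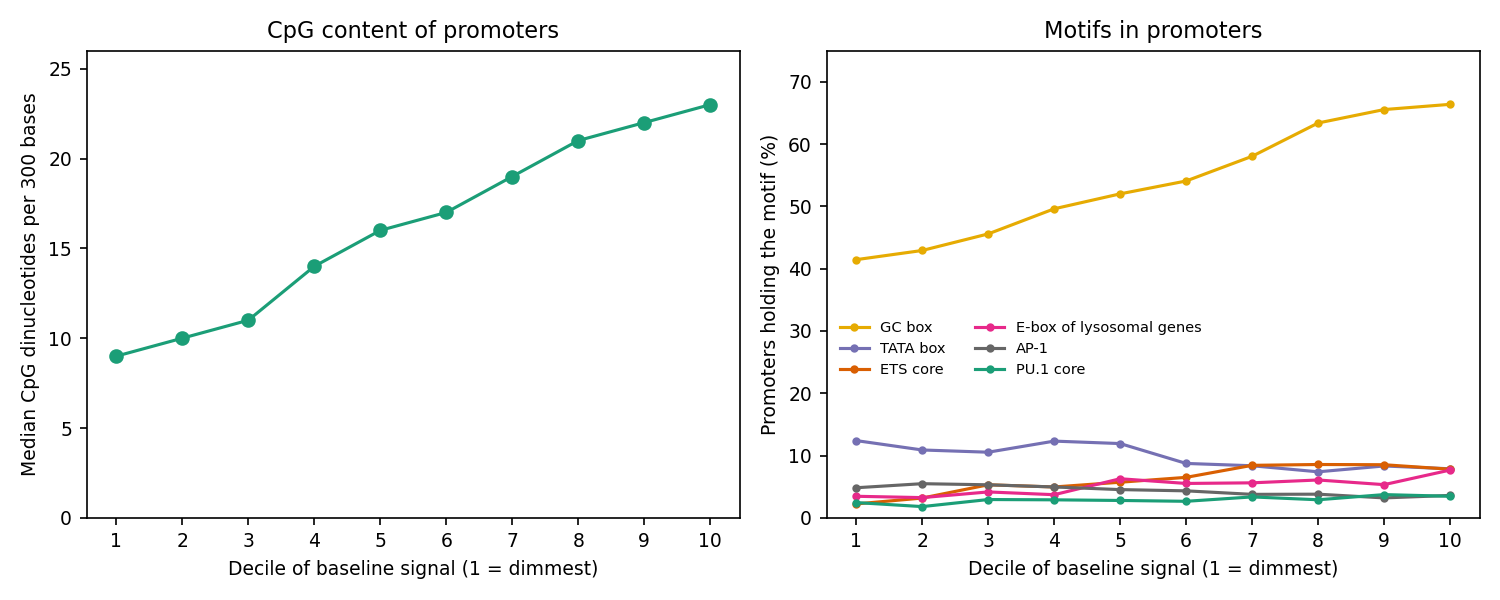
Left, median number of CpG dinucleotides in the 300-base RefSeq promoter by decile of baseline signal (x axis, 1 is the dimmest); right, percent of promoters holding each of 6 motifs on either strand by the same deciles. CpG content climbs from 9 to 23 and the GC box from 41.5% to 66.4%, while the TATA box falls from 12.4% to 7.88%.

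The lysosomal genes and the Fc and complement receptors were the brightest lists read. The 21 lysosomal genes had a median percentile of 98.8, against 98.6 for the 7 receptor genes of that list and 50 for all genes. Read from probe sets named _at alone, the medians were 97.7 and 99.3, so their order turned. Of the lysosomal genes 17 lay above the receptor genes on both arrays (81.0%, against 12.7% of all genes). Besides *Ctss*, the cathepsins *Ctsb* (15.58 and 16.39), *Ctsd* (14.33 and 14.97), *Ctsz* (13.37 and 13.95), *Ctsl* (13.24 and 13.83) and *Ctsc* (12.96 and 13.46) were in the brightest 2% of genes. The saposin precursor *Psap* had 15.24 and 15.81, and the cholesterol carrier *Npc2* had 15.27 and 15.57. The lysosomal membrane proteins *Laptm5* (15.70 and 16.10), *Lamp2* (14.19 and 14.92) and *Lamp1* (13.84 and 14.04) followed. The dim members were the hydrolases *Naglu* (9.01 and 9.82) and *Gaa* (8.13 and 7.89), which break down heparan sulfate and glycogen, and *Ctsk*, the collagenase of osteoclasts, with 8.18 and 6.55. The legumain gene *Lgmn* had 9.21 and 10.38. Of the transcription factors known for this program, *Mitf* had 12.53 and 13.08 and *Tfe3* 11.83 and 12.54, while *Tfeb* had 6.03 and 4.20 and *Tfec* 9.69 and 10.11. *Tfeb* was thus at percentile 7.9 and its arrays differed by 1.82.

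Among the 104 surface genes, the list of Fc and complement receptors had the highest median. The median percentile of the class was 86.6, and 44 of 104 genes (42.3%) lay above the receptor genes on both arrays. All 7 genes for Fc and complement receptors were in the brightest 10% of genes. *C3ar1* and *C5ar1*, the anaphylatoxin receptors, had 13.81 and 13.71, and 12.91 and 14.32. The IgG receptors *Fcgr3* (13.24 and 14.14) and *Fcgr2b* (12.95 and 13.56) and their signaling chain *Fcer1g* (12.76 and 13.31) were brighter than *Fcgr4* (10.25 and 11.63) and *Fcgr1* (10.13 and 11.65). *Tyrobp*, the adaptor DAP12, had 14.21 and 15.27. Of 20 scavenger and phagocytic receptors 12 were in the brightest 10%, led by *Msr1* (the class A scavenger receptor, 14.03 and 14.64), *Cd93* (13.47 and 14.06), *Cd68* (12.98 and 13.62), *Clec7a* (the β-glucan receptor dectin-1, 12.78 and 13.71) and *Cd36* (13.14 and 13.26). The receptors for apoptotic cells were spread out: *Mertk* had 10.95 and 11.35, *Timd4* 9.23 and 8.77 and *Axl* 6.29 and 7.78, at percentiles 92.1, 66.0 and 27.0.

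The brightest surface genes were *B2m*, *Csf1r* and the integrin chain *Itgav*. *B2m*, the light chain of MHC class I, had 15.33 and 16.56, and the class I heavy chains *H2-K1* (13.39 and 14.25) and *H2-D1* (13.24 and 14.22) were in the brightest 2%. The class II genes were lower, from *Cd74* (11.74 and 12.81) and *H2-Aa* (11.49 and 11.30) to *H2-Ab1* (10.40 and 11.02) and *H2-Eb1* (9.86 and 10.70). The integrin chains *Itgav* (15.82 and 15.89), *Itgb2* (13.16 and 13.86) and *Itga6* (12.95 and 13.74) were bright, whereas *Itgam*, which encodes CD11b, had only 8.57 and 8.80 and lay at percentile 60.1. Of the growth factor and cytokine receptors, *Csf2rb* (13.52 and 14.19) came next to *Csf1r*. Of the interferon-γ receptor arms, *Ifngr1* (7.84 and 9.07) was near the median gene and *Ifngr2* (9.16 and 9.59) lay above it on both arrays. *Il10ra*, the IL-10 receptor, was among the dimmest surface genes with 5.83 and 4.54.

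Toll-like receptors split into bright and dim members. *Tlr13*, which senses bacterial ribosomal RNA, had 11.22 and 11.60, *Tlr3*, which senses double-stranded RNA, 10.56 and 10.55, and *Tlr4*, which senses lipopolysaccharide, 10.07 and 10.60. At the other end, *Tlr9*, which senses unmethylated DNA, had 7.58 and 7.74, and *Tlr6* (8.88 and 3.99), *Tlr8* (4.16 and 6.54) and *Tlr5* (3.33 and 6.57) differed between the arrays by more than 2. Their place below the median gene held on the mean of both arrays, but *Tlr6* was above it on array 1. *Cx3cr1*, the fractalkine receptor, was dim on both arrays with 6.98 and 6.68, and *Ccr2*, the receptor for CCL2, was intermediate with 9.23 and 9.66. Within the list of 12 chemokine, purine and lipid mediator receptors the brightest were *Cxcr4* (12.88 and 13.46) and the prostaglandin E2 receptor *Ptger4* (12.59 and 13.27).

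Secreted genes spanned the whole order. The 102 genes had a median percentile of 72.0, 32 (31.4%) lay above the receptor genes on both arrays and 15 were in the dimmest 25% of genes. Of 33 matrix, protease, lipid carrier and tissue repair genes, 18 were in the brightest 10%. Besides *Lpl* and *Saa3*, these included the galectins *Lgals3* (15.05 and 15.65) and *Lgals1* (13.99 and 14.82), the phospholipid carrier *Pltp* (14.07 and 14.90), the macrophage elastase *Mmp12* (14.16 and 14.39) and the protease inhibitor *Slpi* (12.88 and 14.07). *Fn1* (fibronectin) had 12.34 and 12.86, and *Apoe* 11.11 and 11.78. Within the same list *Lcn2*, an iron chelating acute phase protein, was the dimmest of all secreted genes with 3.07 and 1.81, and the protease inhibitor *Timp1* (4.30 and 3.84) and the gelatinase *Mmp9* (5.07 and 4.26) were close to it. Of the 3 genes for C1q chains, *C1qb* and *C1qc* (12.06 and 13.21) were bright and *C1qa* (9.60 and 9.75) was lower, each through its own probe sets.

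Most chemokine and cytokine genes lay in the middle of the order. Of 23 chemokine genes, with a median percentile of 52.7, 11 were below the median gene and 1 in the dimmest 25%, and 4 were in the brightest 10%: *Ccl6*, *Pf4* (platelet factor 4, 13.93 and 14.66), *Ccl9* (12.84 and 14.33) and *Cxcl13* (11.04 and 10.94), which attracts B cells. *Ccl2*, the ligand of CCR2, had 9.63 and 11.23 and *Ccl3* had 9.63 and 11.10, a difference between the arrays of over 1 in both. The M2 associated chemokines *Ccl22* (4.04 and 2.89), *Ccl17* (7.42 and 7.78) and *Ccl24* (6.45 and 8.80) lay below the median gene on the mean of both arrays. Of 22 cytokine genes none lay above the receptor genes on both arrays, and their median percentile was 49.6. The brightest were *Tnfsf13b* (BAFF, a survival factor of B cells, 10.31 and 9.57), *Il18* (9.24 and 10.35) and *Il1rn* (the IL-1 receptor antagonist, 9.02 and 9.48). *Il1b* had 8.34 and 8.73, *Il6* 8.59 and 7.95 and *Tnf* 7.58 and 7.66, all within the range of the receptor genes. *Il10* had 6.80 and 3.66, *Il23a* 5.98 and 3.48 and *Csf3* 3.57 and 2.20.

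Growth factor genes and the TGF-β pathway, on which the study of miR-21 turned, had a wide range. *Grn*, *Pros1* (protein S, a ligand of MERTK, 13.38 and 14.21), *Igf1* (11.89 and 12.94) and *Pdgfa* (11.63 and 11.83) were the 4 of 15 growth factor genes in the brightest 10%. Of the TGF-β ligands *Tgfb2* read 10.77 and 9.96, *Tgfb1* 7.86 and 8.82 and *Tgfb3* 3.14 and 2.69. The receptor genes *Tgfbr2* (11.08 and 11.57) and *Tgfbr1* (11.05 and 10.98) were in the brightest 10%. The coreceptor gene *Tgfbr3* is not given here. Of the signal transducers, the common partner *Smad4* had 10.94 and 11.23, *Smad3* 9.82 and 10.58, *Smad2* 8.73 and 8.64 and the inhibitor *Smad7* 10.61 and 9.62. *Smad7* and *Tgfb2* were brighter on array 1, *Tgfb1* on array 2.

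Transcription factor genes reached from the brightest to the dimmest 10% of genes. The 79 genes of the macrophage and general lists had a median percentile of 80.1, and 31 (39.2%) lay above the receptor genes on both arrays. *Jund*, an AP-1 factor, led with 13.81 and 13.74, followed by the heme sensor *Bach1* (13.16 and 13.26), the interferon regulatory factor *Irf2* (12.82 and 13.20), the E protein inhibitor *Id2* (12.70 and 13.31) and *Mitf*. *Egr2* (12.66 and 12.78), *Maf* (12.66 and 12.68) and *Ets2* (12.36 and 12.96) were also in the brightest 3%. Several factors that define the lineage were of intermediate signal. *Spi1*, which encodes PU.1, had 8.72 and 9.40 (percentile 67.4), *Irf8* 8.47 and 8.93, and *Gata6*, the factor of large PMs, 9.45 and 9.13. *Cebpa* (11.26 and 11.86) and *Cebpb* (11.22 and 10.70) were in the brightest 10%.

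At the dim end of the class, *Nr1h3*, the oxysterol receptor LXRα, had 5.48 and 4.43, and *Tfeb*, *Batf* (4.53 and 6.23) and *Nr4a1* (6.22 and 4.75) were close to it. *Junb* read 7.32 and 2.90 and *Fosb* 7.56 and 3.50, each below the median gene on both arrays and far lower on array 2. Of the NF-κB subunit genes, *Rela* (7.05 and 8.46), *Relb* (7.56 and 7.65) and *Rel* (8.03 and 8.82) lay below most of the class, and the others are not given here. *Irf7*, an interferon-induced factor, had 5.63 and 9.08, and its place changed from below to above the median gene between arrays. The interferon-related *Stat2* (7.68 and 8.49) and *Irf9* (8.18 and 8.38) were near the median gene.

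The 120 metabolic genes had a median percentile of 85.7, and 55 (45.8%) lay above the receptor genes on both arrays. After *Fabp5*, *Fth1* and *Fabp4* came *Mdh1* (malate dehydrogenase, 14.75 and 14.96), *Acly* (ATP citrate lyase, which makes acetyl-CoA for lipid synthesis, 14.40 and 15.24), and the respiratory chain subunits *Cox6a1* (14.36 and 14.67), *Cox7a2* (13.90 and 14.10) and *Atp5a1* (13.55 and 14.06). Of 16 genes for the respiratory chain and ATP synthase 9 were in the brightest 10%, with a median percentile of 93.7. For 16 glycolysis genes the median was 85.6, with *Aldoa* (12.82 and 13.64), *Pgk1* (12.56 and 13.54) and *Pgam1* (12.44 and 12.65) at the top. Of 18 genes for iron, heme and redox 11 were in the brightest 10%, including thioredoxin *Txn1* (13.37 and 14.15), catalase *Cat* (12.83 and 12.99), the phagosomal metal transporter *Slc11a1* (11.94 and 12.58) and the oxidase subunit *Cybb* (11.84 and 12.19). *Hmox1*, heme oxygenase 1, had 9.76 and 9.82.

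The arginine enzymes, used to tell macrophage states apart, lay at different levels. *Arg1*, which makes ornithine and is known from M2-like cells, had 10.90 and 11.91 and percentile 93.6, and *Odc1*, which turns ornithine into putrescine, had 11.84 and 11.63. *Nos2*, the inducible nitric oxide synthase known from M1-like cells, had 7.30 and 7.49 and percentile 33.0. Of other markers of alternative activation *Mrc1* (CD206) was about as bright as *Arg1* with 11.49 and 11.84, while *Retnla* had 8.70 and 9.23 and *Chil3* 6.98 and 7.48. Of the lipoxygenase genes *Alox15*, known from resident PMs, had 5.53 and 7.70, and the partner protein *Alox5ap* 11.08 and 12.58. The dimmest metabolic genes were *Ltc4s* (leukotriene C4 synthase, 1.88 and 6.66), the triglyceride lipase *Pnpla2* (4.99 and 4.66), *Dgat1* (which makes triglycerides, 4.36 and 6.69) and the lactate exporter *Slc16a3* (6.72 and 4.52).

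**Figure D3:**
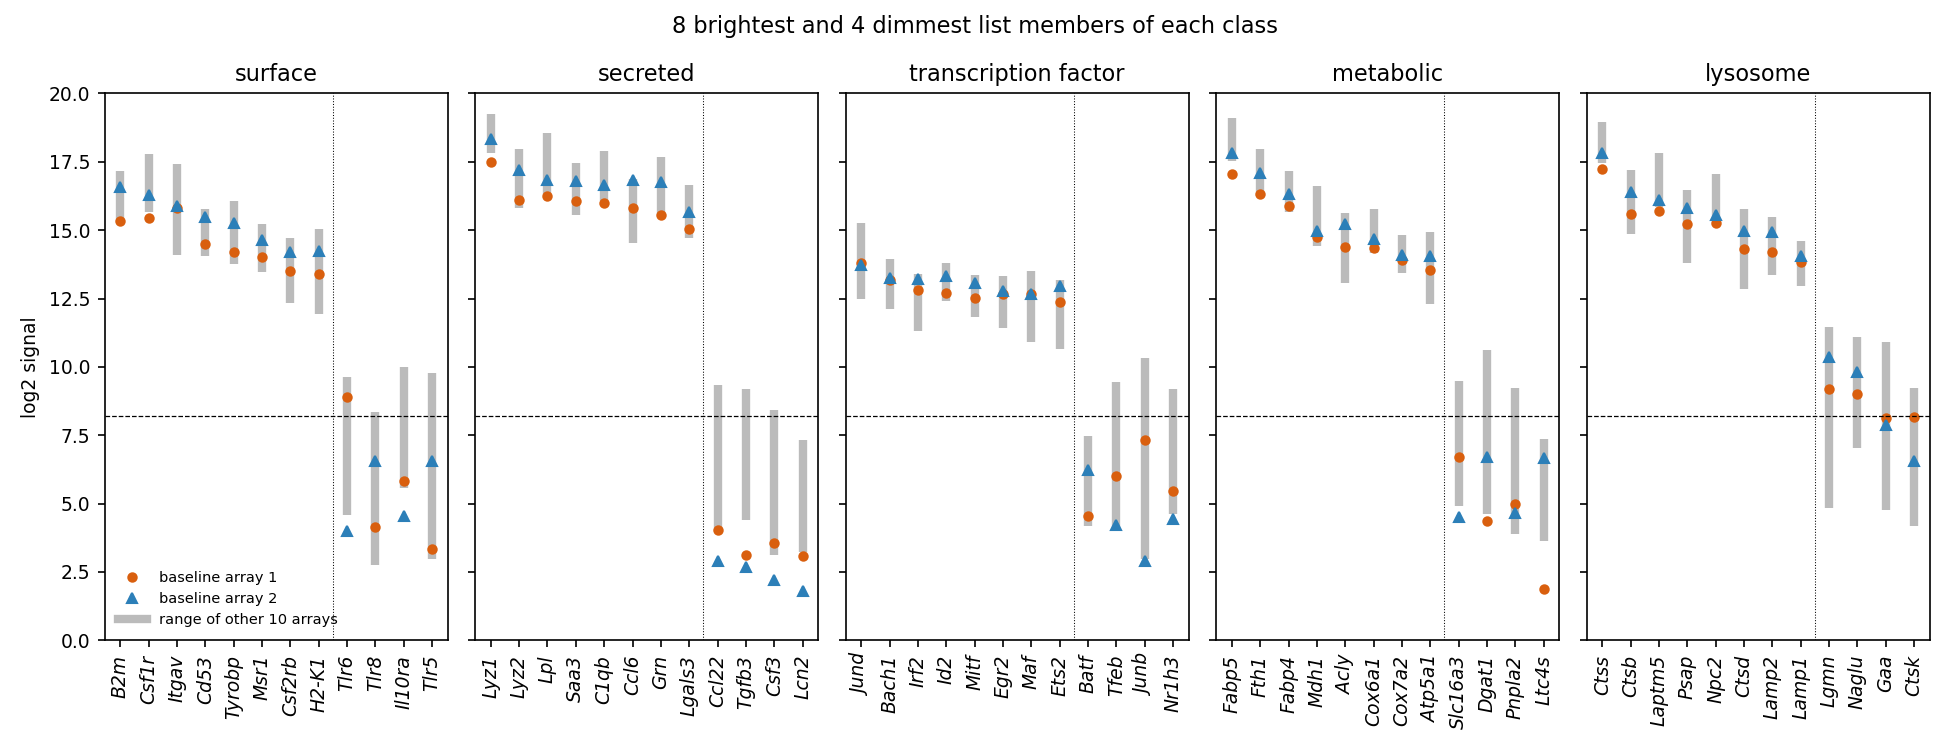
Log2 signal (y axis) of the 8 brightest and 4 dimmest list members of each class (left and right of the dotted line) on baseline array 1 (orange circles) and array 2 (blue triangles); grey bars span the other 10 arrays and the dashed line is the median gene. Bright members sit nearer together on both arrays than the dim members *Tlr6*, *Junb* and *Ltc4s*, while other dim members, such as *Pnpla2* and *Gaa*, also lie close together.

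The markers of large PMs did not form a uniformly bright list. Of its 21 genes 7 lay above the receptor genes on both arrays and 6 were below the median gene, with a median percentile of 77.1. The list also holds *Lyz2*, a general macrophage marker and its brightest member, and 3 of its genes were in the brightest 1%. The count and the median are therefore not those of genes particular to large PMs. *F5* (coagulation factor V, 12.06 and 11.58), *Selp* (P-selectin, 11.28 and 11.55) and *Vsig4* (a complement receptor, 10.87 and 11.79) were bright, but *Icam2* (7.48 and 8.72), *Rarb* (7.27 and 7.53) and *Aspa* (7.51 and 3.08) were not. For small PMs and monocytes the median percentile of 10 genes was 71.3, with 3 above the receptor genes (*Fn1*, *Mrc1* and *Irf4*, the last with 10.74 and 10.56). Of 9 housekeeping genes 8 lay above the receptor genes on both arrays. Of 49 ribosomal protein genes 36 did so, but *Rps16* was among the dimmest genes of all with 1.15 and 2.07. A constitutive gene could therefore be read as dim. The 9 cell cycle genes had a median percentile of 68.1, with *Pcna* (11.96 and 12.48) at the top and *Aurkb* (7.22 and 7.21) at the bottom.

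Lists of other cell types were mostly at or below the median gene. The median percentile was 17.7 for 12 T and NK cell markers, 28.5 for 8 dendritic cell markers, 32.3 for 7 neutrophil markers, 33.6 for 8 mast cell markers and 41.4 for 13 mesothelial and fibroblast markers. These short lists moved with the array: on array 1 alone the median was 28.6 for T and NK cell markers, and on array 2 alone it was 17.9 for neutrophil markers. For mast cell markers it was 58.1 with probe sets named _at alone. None of the T and NK, dendritic, neutrophil or mast cell markers lay above the receptor genes on both arrays. The brightest of each were *Cd3e* (8.82 and 8.97), *Zbtb46* (10.64 and 9.29), *S100a8* (8.07 and 8.68) and *Cpa3* (9.38 and 10.26), and the dimmest *Gzmb* (4.17 and 3.71), *Flt3* (2.64 and 3.49), *Ngp* (5.85 and 3.71) and *Fcer1a* (6.70 and 3.40). Among mesothelial and fibroblast markers *Dcn* (decorin) was above the 95th percentile of the receptor genes with 10.70 and 10.51, while *Krt19* had 1.93 and 6.02. Eosinophil markers ran from *Il5ra* (8.87 and 9.61) to *Epx* (4.09 and 5.55), 5 endothelial markers from *Egfl7* (8.88 and 8.80) to *Cldn5* (3.93 and 8.32), and the erythroid genes were *Hba-a1* (5.95 and 6.10) and *Alas2* (4.64 and 3.45).

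The 8 B cell markers had a median percentile of 69.1. Of these, *Ms4a1*, which encodes CD20, had 12.56 and 12.36 (percentile 97.2) and *Ighm*, the heavy chain of IgM, had 11.48 and 12.17, both above the receptor genes on both arrays. *Cd22* (10.04 and 10.39), *Cd79b* (8.84 and 9.74) and *Cd79a* (8.93 and 9.15) were intermediate, and the B cell factor *Pax5* was at 3.55 and 3.95. The mean over the 8 genes was 9.10 and 9.44 on the baseline arrays and 8.48 to 10.23 on the other 10. *Ebf1*, another B cell factor, had 11.40 and 10.93. In bulk RNA, a small number of cells of a type and little RNA per cell cannot be told apart, and the part of B cells in these signals was not tested.

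Of 18 sensory neuron markers, read because the exosomes were taken to come from sensory neurons, 2 lay above the receptor genes on both arrays. They were the neuronal factor *Pou4f1* (11.01 and 11.41) and the neurotrophin receptor *Ntrk3* (10.73 and 10.59), and *Tac1*, the precursor of substance P, was next with 10.40 and 10.26. The median percentile was 35.2, and the nociceptor channel genes *Scn10a* (6.93 and 3.04) and *Trpv1* (6.40 and 6.62) and the neurofilament *Nefm* (6.90 and 5.10) were below the median gene. For 7 Schwann cell and satellite glia markers the median was 35.8, but 54.9 on array 1 alone, with *Pmp22*, which many cell types use, at 13.43 and 14.55 and *Kcnj10* at 8.53 and 5.12. Among lists of other organs and lineages, 11 hormone and plasma protein genes had a median percentile of 28.7 and none above the receptor genes. The 22 transcription factors of other lineages had 33.4 and 2 above (*Pou4f1* and *Ebf1*). That list includes the B cell factors *Ebf1* and *Pax5*, and B cells are cells that the lavage can hold. The Y-linked *Eif2s3y* (11.31 and 11.72) and *Xist* (9.47 and 9.58), which female cells use, were both read above the median gene, in PMs for which the methods name mice of both sexes.

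**Figure D4:**
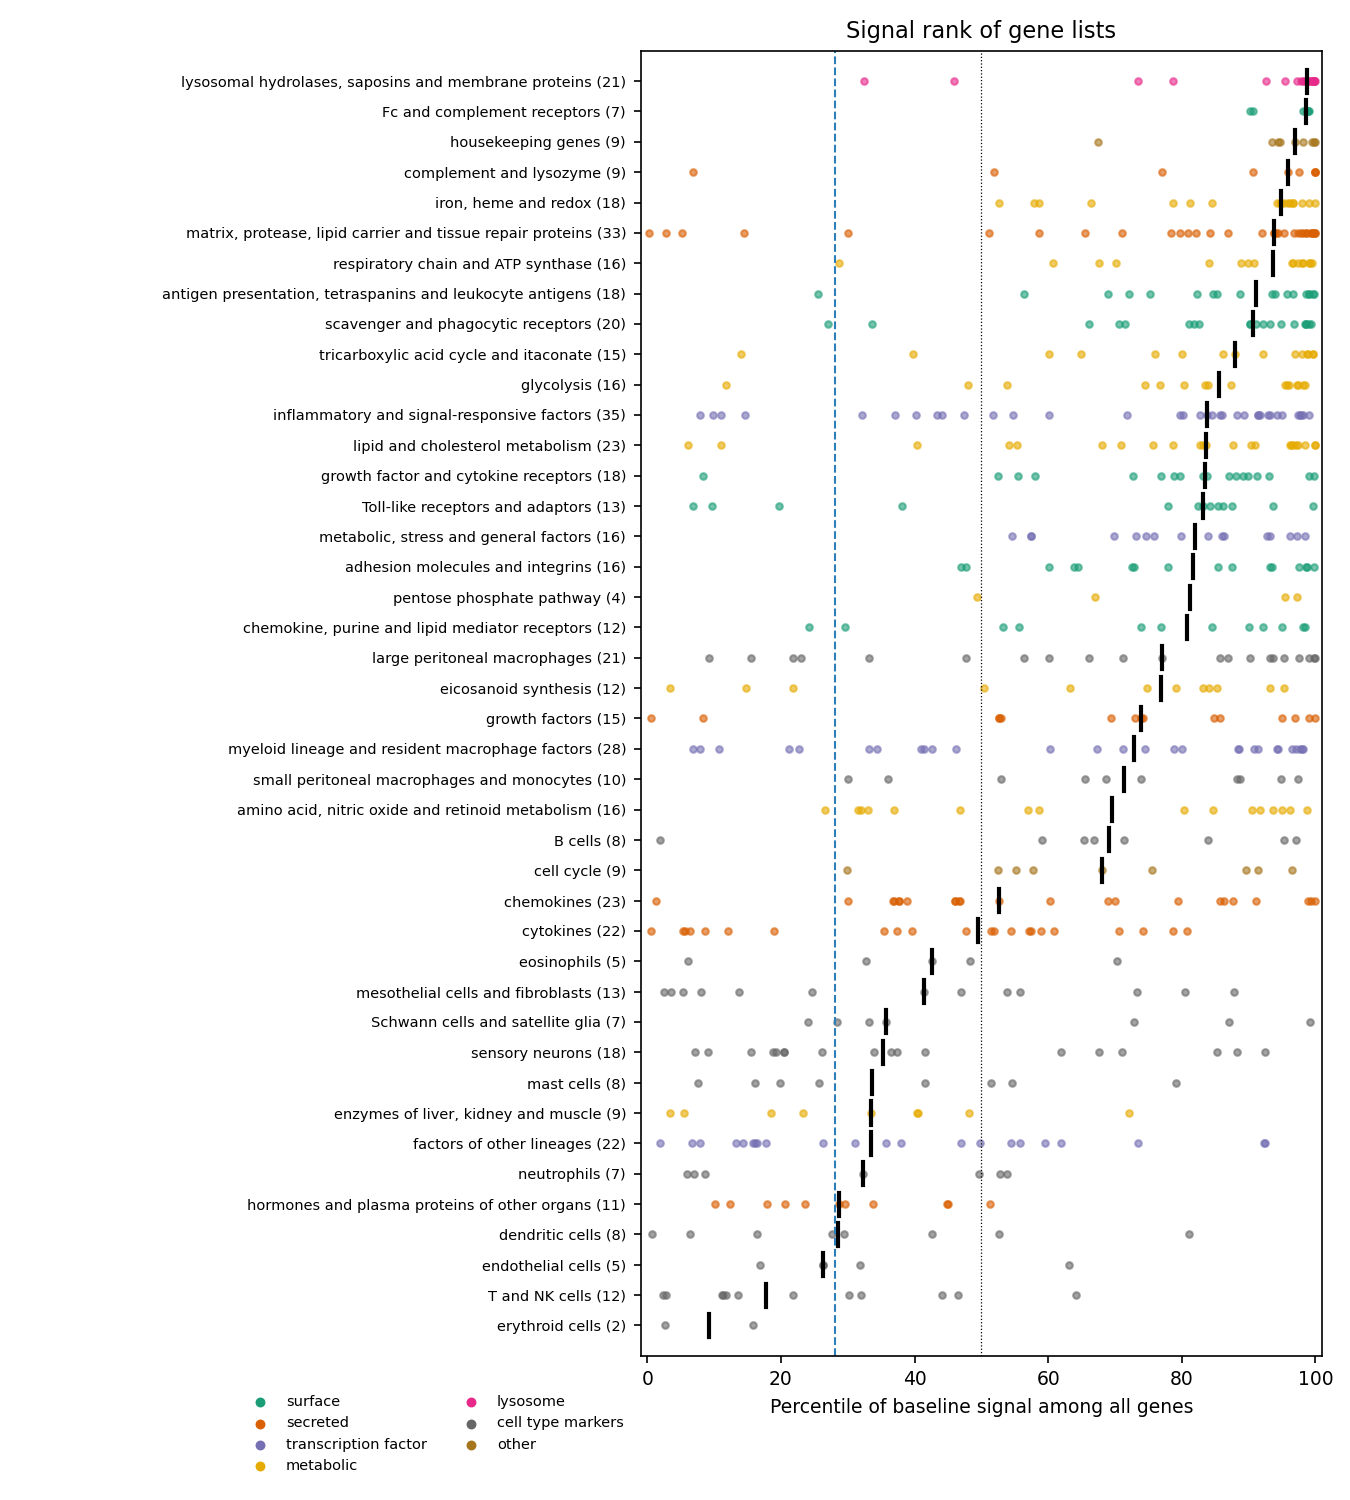
Percentile of baseline signal among 18193 genes (x axis) for every member (points) and the median (black bars) of each gene list, with the number of genes read in brackets; colors mark classes, the dotted line is the median gene and the dashed blue line the median of the 72 receptor genes (28.1). Lysosomal genes and Fc and complement receptors lie at the right end, and lists of other organs and of T and NK cells at the left.

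The 2 baseline arrays agreed more closely than any other pair of replicates in the series. Across genes, which are not independent replicates, Pearson's r between them was 0.785 and Spearman's rho 0.835, against r of 0.478 to 0.785 over the 6 pairs of the same group. Of all 66 pairs of arrays they ranked 2nd by r, after baseline array 1 with replicate 2 of scramble and GFP exosomes (r = 0.800), and array 2 with that same array ranked 3rd (0.782). Arrays of different groups had r from 0.420 to 0.800, with a median of 0.599 over 60 pairs. An array of another group could therefore be as near to a baseline array as its own replicate. The median absolute difference of the baseline arrays was 0.65 on the log2 scale, and 33.6% of genes differed by over 1, which is 2-fold on the linear scale.

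Agreement depended on signal level. In the brightest decile the median absolute difference was 0.41 and 8.30% of genes differed by over 1. In the decile just below the median gene it was 0.56 and 23.8%, and in the 2nd dimmest decile it was 2.52 and 85.2%. The dimmest decile had 1.82, the single decile in which the baseline pair differed more than every other replicate pair (0.97 to 1.60). From the 2nd to the 7th decile the baseline pair differed less than every other pair. These deciles were set by the same arrays whose difference was read. In deciles set by the other 10 arrays, the dimmest had 1.459, less than every other pair (1.573 to 1.935). The 2nd dimmest then had 1.114, with 54.0% of genes differing by over 1. Genes above 7 on both arrays numbered 12040 (66.2%), whereas 760 genes were below 6 on array 1 and above 7 on array 2, and 1240 the reverse. These genes make up the arms of the scatter of both arrays.

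**Figure D5:**
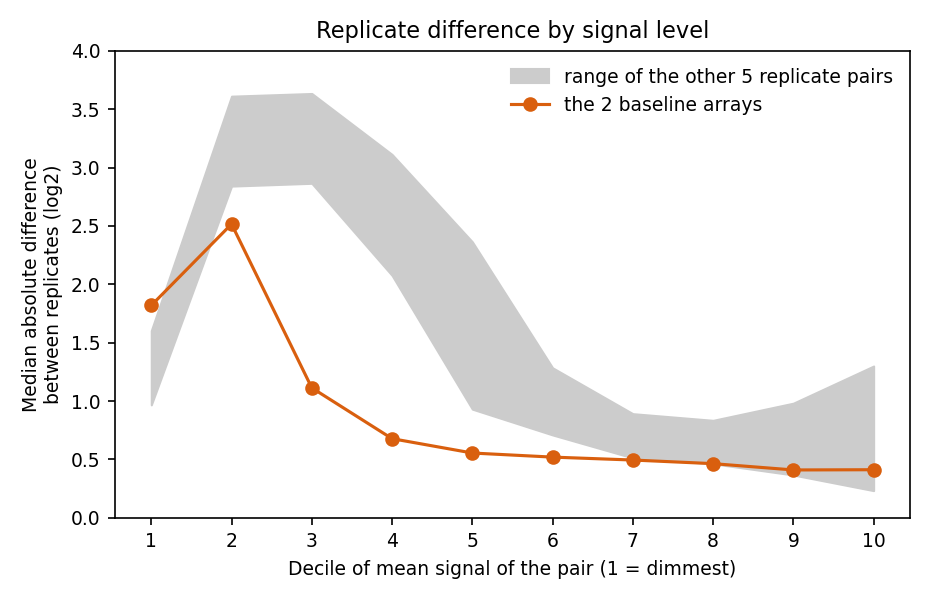
Median absolute difference between replicates (y axis, log2) by decile of the mean signal of the pair (x axis, 1 is the dimmest); orange points are the 2 baseline arrays and the grey band spans the other 5 replicate pairs. The baseline pair lies below the band from the 2nd to the 7th decile, at its lower edge in the 8th, inside it in the 9th and 10th and above it in the dimmest. The place above the other pairs does not hold in deciles set by the other 10 arrays.

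Most of the brightest genes were the same on both arrays. Of the brightest 20 genes of each array 17 were common to both, of the brightest 100 there were 81, of the brightest 500 there were 429 and of the brightest 1000 there were 849. With each of the other 10 arrays, the baseline arrays shared 70 to 89 of the brightest 100. Within the brightest 500 genes 51 differed by over 1 and 1 by over 2: the unnamed transcript *AY036118*, with 11.63 and 13.82. *Slc35a2*, a UDP-galactose transporter, had 13.04 and 14.86, and *Smad1*, a BMP signal transducer, 13.46 and 14.97. *Lcor*, a nuclear receptor corepressor, went the other way with 14.82 and 13.04. Its array 1 signal was above all other 10 arrays, which ran from 11.78 to 13.46.

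Of the 9096 genes above the median of the mean baseline signal, 68 differed by over 2 between the arrays. The largest difference was that of *Mdga2*, a neuronal adhesion molecule, with 10.34 and 6.40, and next was *Eif3m*, a subunit of a translation initiation factor, with 7.30 and 10.72. On the other 10 arrays *Eif3m* ran from 9.87 to 12.08, so that array 1 was lower than every other array of the series. *Tbc1d7*, a partner of the TSC complex, had 11.40 and 8.60, and its array 1 signal was above the range of the other 10 (3.55 to 9.78). The next were *Hsf2bp* (9.93 and 6.52), *1700010H22Rik* (10.06 and 7.01), *AF067061* (9.79 and 6.75), the homeobox factor *Otx2* (9.85 and 6.90), *Stxbp5l* (11.02 and 8.25), *Urgcp* (7.21 and 9.87) and *Vit* (9.61 and 6.96). In 8 of these 10 genes array 1 was the brighter. The opposite held among the brightest 100 genes.

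To ask whether the baseline transcriptome differed from those of the other groups, its mean was compared with the mean of the other 5 group means by limma over all 12 arrays. No gene passed at an adjusted p under 0.05 (limma, Benjamini-Hochberg over 18193 genes; percent called 0.0), and the smallest adjusted p was 0.911. At an unadjusted p under 0.05 (limma), 76 genes (0.418%) were higher and 427 (2.35%) lower in baseline PMs. Where no gene differs, a threshold of 0.05 is set to pass a larger share than these together, so they are not a set of changed genes. The count of higher genes turned on single arrays: it was 17 without baseline array 1 and 19 without baseline array 2. It was 228 without replicate 2 of antagomir-21 and miR-21 exosomes, 186 without replicate 2 of lipofectamine and miR-21 exosomes and 149 without replicate 1 of scramble and miR-21 exosomes. None of the 21 lysosomal and 79 transcription factor genes and 1 of 104 surface genes (*Il10ra*), 5 of 102 secreted genes (*Tgfb3*, *Il13*, *Ccl22* and *Lcn2* lower, *Il4* higher) and 1 of 120 metabolic genes (*Dgat1*) were among them. Of the 22 transcription factors of other lineages 1 was lower, the B cell factor *Pax5*. Out of 18193 genes, both baseline arrays were above all other 10 for 104 and below all other 10 for 223. These counts were not set against those of other pairs of arrays.

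Of genes that did not overlap with the other arrays, the 5 with the smallest p in each direction are given. The 5 lower genes had low signals in baseline PMs, and the 5 higher genes lay near the median gene. *Large2*, a glycosyltransferase, had 2.76 and 2.86 against 6.49 to 9.18 on the other 10 arrays, a fitted log2 difference of −5.24 ± 0.81 (SE). *Trmt61a*, a tRNA methyltransferase, had 4.20 and 4.22 against 6.14 to 9.30, *C8g* (a complement chain) 2.93 and 2.32 against 4.94 to 9.81, *Cdo1* (cysteine dioxygenase) 3.92 and 2.89 against 6.60 to 9.37, and *Cldn1* (claudin-1) 1.95 and 2.24 against 3.58 to 9.30. In the other direction *Fam187b* had 7.81 and 7.64 against 3.87 to 6.76, *Mc3r* (a melanocortin receptor) 7.62 and 8.0 against 3.31 to 6.80, *Aldh1l2* (a mitochondrial folate enzyme) 8.30 and 8.23 against 3.74 to 7.44, *Lcat* 8.30 and 7.80 against 3.62 to 6.82 and *Mmp11* 7.66 and 7.94 against 3.40 to 7.44. All 10 had signals within the range of the sensory receptor genes, and all had an adjusted p of 0.911 or above (limma). The 2 brightest lists of the baseline order were also bright on the mean of the other 10 arrays. There the lysosomal list had a median percentile of 98.9 and the Fc and complement receptors 98.3. On these arrays singly, the mean signal of the lysosomal list ran from 12.35 to 14.19. That of the Fc and complement receptors ran from 11.86 to 13.59. Percentiles were not read per group.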

How the data were processed

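PM RNA was hybridized to 12 Affymetrix mouse arrays, 2 for each of 6 groups defined by the sample labels, while the methods speak of 3 biological replicates. The values used are those the authors deposited, as log2 signals of probe sets. RMA with quantile normalization is named in the methods, yet the 12 distributions differ and the linear means, trimmed by 2% at each end, were 496.2 to 498.5. The software behind these values was not given in the sources used here, and quantile normalization was run as an alternative.

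The platform annotation gave 1 gene symbol for 34945 of 45037 probe sets, several for 932, and did not list 9160. Gene IDs served to update 34741 symbols. For each of 18193 genes, the brightest probe set over the 12 arrays was read, without a filter on low values. Detection calls were not used here, and the number of arrays limits the precision.

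Baseline PMs were set against the mean of the other 5 group means in limma 3.58.1 (R 4.3.3; moderated tests with 6 group means and 6 residual df), after a test on simulated data. Python 3.11.15 and pandas 2.3.3 were used otherwise. Named genes were *Csf1r*, *Adgre1* and *Lyz2*, the 20 brightest genes, up to 12 brightest and 6 dimmest of each class list, the brightest and dimmest marker of each other cell type, the 10 genes above the median with the largest array difference and, per direction, the 5 non-overlapping genes with the smallest p. Further genes were named after their values were seen. The members and lists were chosen with earlier results of these data known.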

Additional observations from a re-analysis of the deposited data

How the results depend on the processing

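No gene passed an adjusted p under 0.05 (limma) in the comparison of baseline PMs with the other groups under any of 18 alternatives. At an unadjusted p under 0.05 the count of 503 genes became 104 among genes above the median signal (12 higher, 92 lower), where fewer genes were tested, and ranged from 296 to 697 when single arrays were left out, the higher genes alone from 17 to 228. It was 296 (19 higher, 277 lower) without baseline array 2, which leaves a lone baseline array assumed to vary like the other groups. Median centring moved the split to 140 higher and 284 lower, against 76 and 427, and the median difference of all genes from 0.12 to 0.40. With the replicate block the count was 524 (74 higher, 450 lower). Arrays with the same replicate number did not deviate together, so the numbers give no pairing: 15 correlations of deviations from group means ran from −0.192 to 0.167. All 10 named genes of this comparison kept their direction under every alternative in which they were tested. Both baseline arrays of these genes were chosen to lie outside the range of the other 10, so leaving out an array could not reverse them. The replicate block and the mean-variance trend left their differences unchanged. The kept direction therefore says little about these genes.

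For the baseline pair, 33.6% of genes differed by over 1, and 16.0% of genes above the median of the mean signal over all 12 arrays did. The median difference in the dimmest decile was 1.82, but 0.90 after quantile normalization, 1.46 with the mean of all probe sets, 1.46 in deciles set by the other 10 arrays and 0.77 among genes above the median signal. In deciles set by the other 10 arrays, the baseline pair differed less in the dimmest decile than every other replicate pair (1.573 to 1.935). The median percentile of transcription factors was 80.1, but 67.6 with the mean of all probe sets and 83.9 with probe sets named _at alone. That of metabolic genes was 85.7, but 81.1 with the latter, and that of lysosomal genes 98.8, but 98.9 and 97.7 with these settings. That of Fc and complement receptors was 98.6, but 99.3 with the latter. On single arrays the medians ran from 83.6 to 87.4 for surface and from 77.2 to 81.0 for transcription factor genes. Of the brightest 100 genes, 41 stayed among the brightest 100 with the mean of all probe sets, and 30 of the 80 that had a probe set named _at alone did so with these, of which 24 were read by one already. The cause was not tested.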
